A study of Mus musculus with 12 samples.

Results

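Type I interferon effector genes are the genes that carry out the antiviral program cells switch on when interferon binds its receptor. A list of 40 mouse symbols was taken, which leaves out the transcription factors, the sensors and the large families of immunity-related GTPases, and each symbol was looked up by name. All 40 had a row among the 24340 rows of the table, and all 40 were among the 18509 genes above 0 in at least 1 library.

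Type I interferons are secreted proteins that bind a receptor made of Ifnar1 and Ifnar2. The kinases Jak1 and Tyk2 then phosphorylate signaling proteins, among them Stat2, which join Irf9 and bind interferon-stimulated response elements (ISRE) in the promoters of the effector genes. The effectors bind or cut foreign RNA, tag proteins with the ubiquitin-like modifier Isg15, and block virus entry, assembly and release, and many of them also respond to interferon gamma and interferon lambda. In the retina both resident glia and blood-derived cells are able to express them.

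The data are RNA-seq libraries of both retinas of each of 6 p16-3MR mice, 12 to 16 weeks old, in 4 groups of 3 libraries. The transgene, carried by every mouse and therefore by all 4 groups, puts a fusion of luciferase, a red fluorescent protein and a viral thymidine kinase under the p16 regulatory region, and the kinase turns ganciclovir (GCV) toxic in cells that express it. In each mouse 1 eye was held at an intraocular pressure (IOP) of 85 to 90 mm Hg for 60 min, the fellow eye was left as control, and the retinas were collected on day 3. Mice 3, 4 and 6 were sham-treated with PBS and gave the ctrl and IOP groups. Mice 1, 2 and 5 received GCV at 25 mg/kg once a day and gave the ctrl-GCV and IOP-GCV groups. Equal numbers of male and female mice were stated for the experiments as a whole, and the sex of each of these mice was not given. The questions were which transcripts respond to the pressure injury, and whether removal of p16-expressing cells alters that response.

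The table holds FPKM values (fragments scaled to exon length and to the fragments of the library), so levels may be compared between genes. The number of fragments was not given and was estimated from the low values at 6860000 to 9020000 in 11 libraries and 3980000 in the IOP-treated retina of mouse 6. For a transcript of 2000 bases, 1 fragment is then worth 0.0554 to 0.0729 FPKM in those 11 libraries and 0.126 FPKM in the IOP-treated retina of mouse 6, so values below about 1 FPKM rest on few fragments. The rod transducin gene Gnat1 stood at 9572 to 18196 FPKM over the 12 libraries, which fits the retina label. Lens crystallin RNA was present in several libraries at levels given further on. In whole-retina RNA a change in the number of cells of a type and a change in RNA per cell cannot be told apart.

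Promoter sequence was available for 32 of the 40 genes, and the core of the ISRE was searched in the 250 bases before each start site. The letters searched were GAAANNGAAA on either strand, where N is any base. They occurred in 9 of the 32 genes (28.1%), against 3.46% of all 27025 genes with an entry, and by promoter in 22.5% of the 40 member promoters against 2.98% of 32851. The 9 genes were Isg15, Ifit1, Ifit3, Oas1a, Oas3, Bst2, Rsad2, Ddx60 and Trim30a. All 9 were called for the IOP effect averaged over both arms, at a median change of 2.14 on the log2 scale. Of the 23 genes without the core in this window 19 were called, at a median of 1.27. Of the 8 genes without a promoter entry 8 were called, at a median of 1.24. Among all genes 6.76% were called higher in that average. These are descriptions of letters in a window, with no test, and the factor itself was not measured. The core of the gamma-activated site, TTCNNNGAA, was found in 10% of the member promoters (in Oas1a, Isg20, Bst2 and Ifit2) against 7.02% of all promoters. In Bst2 it overlapped the ISRE core by letters.

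To show what the element looks like, 120 bases of the promoter are printed for 4 genes that hold the core and for 2 strongly called genes that do not hold it in the searched window. Letters run 5′ to 3′ on the strand of the gene, capitals mark the core, the stretch ends at the start site except in Bst2 (150 to 31 bases before it) and Rsad2 (140 to 21 bases before it), and positions are on RefSeq GRCm38.p6, the assembly of which mm10 is the primary build.
Isg15 (chr4:156200819-156200938, minus strand): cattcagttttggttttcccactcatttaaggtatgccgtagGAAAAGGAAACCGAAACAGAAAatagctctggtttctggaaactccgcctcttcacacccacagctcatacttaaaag
Ifit1 (chr19:34640769-34640888, plus strand): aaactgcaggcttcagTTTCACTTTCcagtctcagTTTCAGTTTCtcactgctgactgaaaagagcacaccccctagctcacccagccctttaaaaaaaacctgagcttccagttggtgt
Bst2 (chr8:71537503-71537622, minus strand): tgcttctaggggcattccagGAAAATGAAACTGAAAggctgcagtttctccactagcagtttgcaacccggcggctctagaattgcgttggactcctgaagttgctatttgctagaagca
Rsad2 (chr12:26456473-26456592, minus strand): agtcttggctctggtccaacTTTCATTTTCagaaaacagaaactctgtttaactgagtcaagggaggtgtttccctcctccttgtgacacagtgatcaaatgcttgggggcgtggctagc
Ube2l6 (chr2:84798708-84798827, plus strand): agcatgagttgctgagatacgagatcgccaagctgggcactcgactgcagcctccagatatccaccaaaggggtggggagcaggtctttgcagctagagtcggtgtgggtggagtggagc
Ifitm3 (chr7:141010745-141010864, minus strand): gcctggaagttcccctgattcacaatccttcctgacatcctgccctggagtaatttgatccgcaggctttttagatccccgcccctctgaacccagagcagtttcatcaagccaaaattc

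In Isg15 3 overlapping cores formed 1 run. Ifit1 and Bst2 held 2 cores each and Rsad2 held 1.

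The summed level of the effector genes was higher after IOP elevation in both arms. Summed over the 40 genes, the level was 109 to 178 FPKM in the 3 ctrl retinas and 510.2 to 606 FPKM in the 3 IOP retinas, and 102 to 141 FPKM in ctrl-GCV and 491 to 901 FPKM in IOP-GCV retinas. No control retina reached the lowest IOP-treated retina. The median gene stood at 1.15 FPKM in ctrl, 5.33 in IOP, 1.21 in ctrl-GCV and 7 in IOP-GCV. Genes with a group mean under 1 FPKM numbered 19 in ctrl, 2 in IOP, 18 in ctrl-GCV and 1 in IOP-GCV. Ifitm3 was the most abundant member after IOP elevation and made up 25.7% of the summed level in IOP and 25% in IOP-GCV retinas, followed by Lgals3bp in both. In ctrl-GCV retinas Adar had the highest mean, with Ifitm3 next to it.

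**Figure D1:**
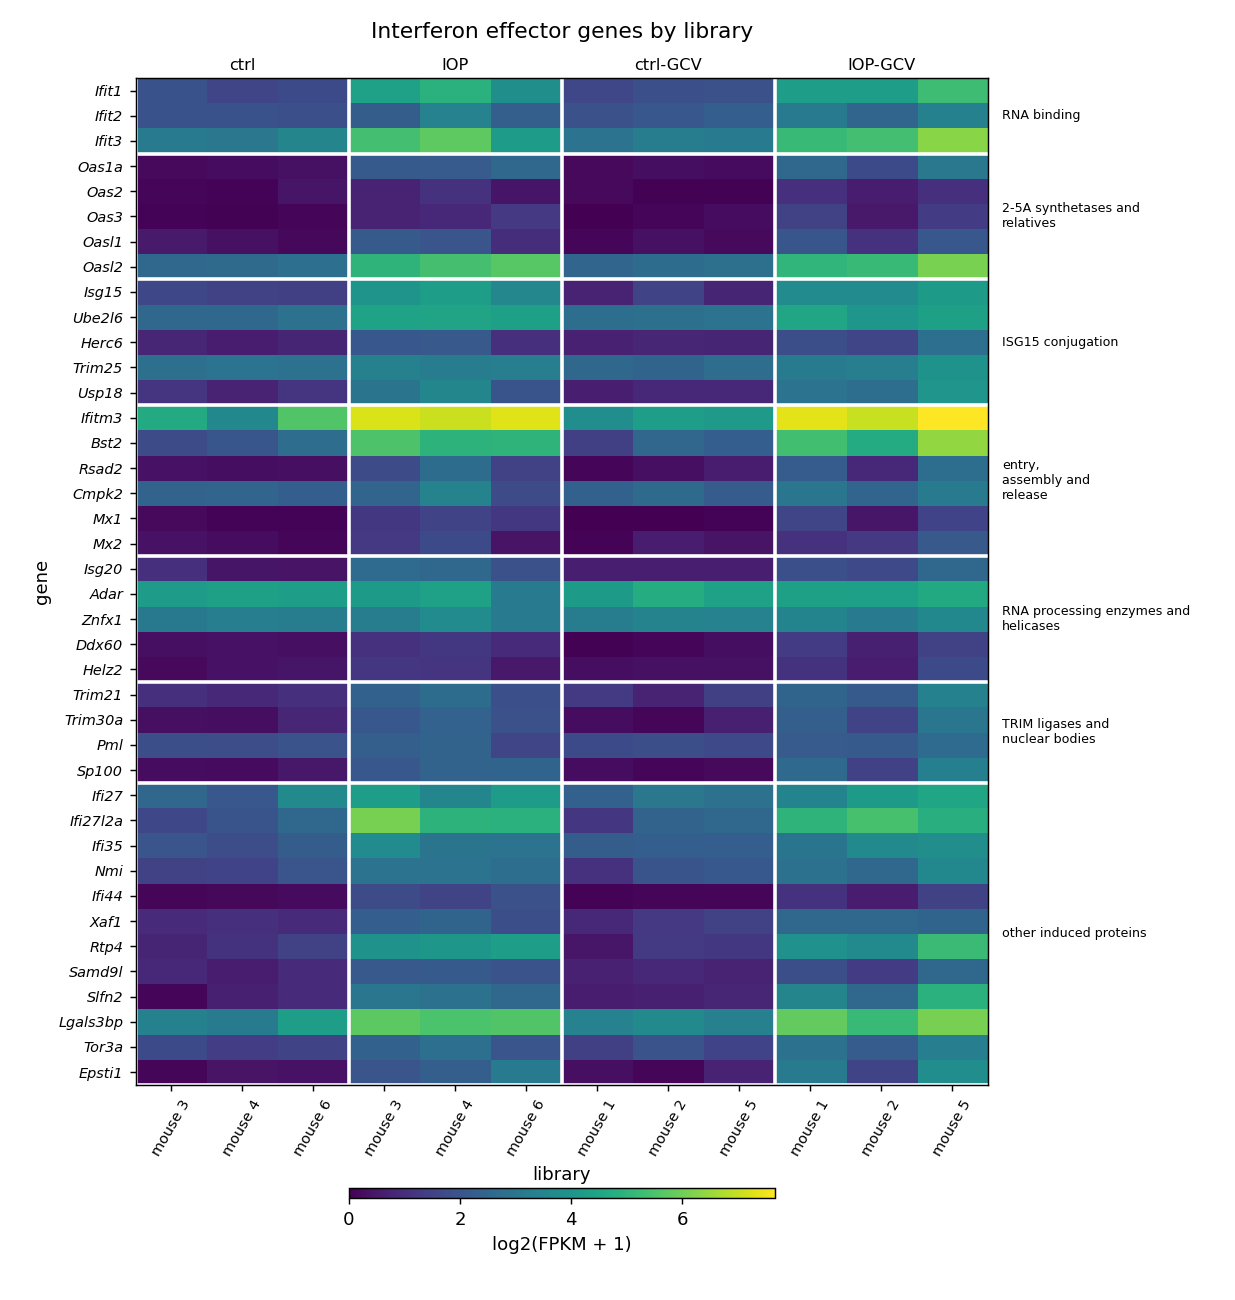
Level of each of the 40 genes as log2(FPKM + 1), by color, in the 12 libraries (columns, ordered by group), with genes in rows by role. The IOP and IOP-GCV columns are brighter than the control columns for most rows, Ifitm3 is the brightest row after IOP elevation, and Adar and Znfx1 look alike in all 4 groups.

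Group differences were fitted with limma on log2(FPKM + 1) and a gene was called at a Benjamini-Hochberg adjusted p under 0.05 over all 18509 genes. In sham-treated mice 19 of the 40 genes rose and 0 fell, against 1.42% of all genes called higher. With the mouse as a block, 7 were called (Ifit1, Oasl2, Isg15, Ube2l6, Ifitm3, Ifi44 and Rtp4), against 75 of all genes in either direction. The count was 4 (Ifit1, Oasl2, Isg15 and Ube2l6) without the ctrl retina of mouse 3, 6 without that of mouse 4, 11 without that of mouse 6 and 10 without the IOP retina of mouse 3. The median log2 fold change of the 40 genes was 1.36 (2.07 at a pseudocount of 0.1), where that of all genes was 0. In 34 of the 40 every IOP value lay above every ctrl value, which held for 11.7% of all genes, and the 6 that overlapped were Oas2, Cmpk2, Adar, Znfx1, Pml and Ifi27.

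In GCV-treated mice 23 of the 40 genes rose and 0 fell, against 1.65% of all genes called higher. The mouse as a block left 14, against 144 of all genes in either direction. The count was 10 without the ctrl-GCV retina of mouse 1, 10 without that of mouse 2 and 12 without that of mouse 5, and 11 when the spread was estimated from these 2 groups alone. The 10 genes called whichever library was omitted were Ifit1, Oas1a, Oasl2, Isg15, Ube2l6, Ifitm3, Bst2, Ifi27l2a, Rtp4 and Lgals3bp. The median log2 fold change was 1.37 (2.58 at a pseudocount of 0.1). In 37 of the 40 the IOP-GCV values lay above all ctrl-GCV values (14.5% of all genes), the others being Cmpk2, Adar and Znfx1. Of the genes called, 18 were called in both arms, Samd9l was called in sham-treated mice and not in GCV-treated mice, and Oasl1, Trim25, Usp18, Ddx60 and Epsti1 were called in GCV-treated mice and not in sham-treated mice. The direct test of the difference between the arms, given further on, called none of these 6.

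Averaged over both arms, which uses all 12 libraries, 36 of the 40 genes rose, against 6.76% of all genes called higher. The 4 not called were Cmpk2, Adar, Znfx1 and Pml. With the mouse as a block 33 were called, the 3 lost being Ifit2 (adjusted p = 0.0585), Tor3a (0.0558) and Helz2 (0.0594). Among all genes 1351 were called with the block, in either direction. In 32 of the 40 all 6 IOP-treated retinas lay above all 6 control retinas (5.47% of all genes), and in 35 the IOP-treated eye was the higher eye in each of the 6 mice (10.7% of all genes). The count of called genes stayed between 32 and 37 when any 1 of the 12 libraries was omitted, and Ifit2, Mx2, Helz2 and Ifi27 were the called genes most often lost, being called in 4, 5, 5 and 6 of these 12 fits. Since log2(FPKM + 1) compresses values below 1 FPKM, the change of the least abundant members is understated.

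**Figure D2:**
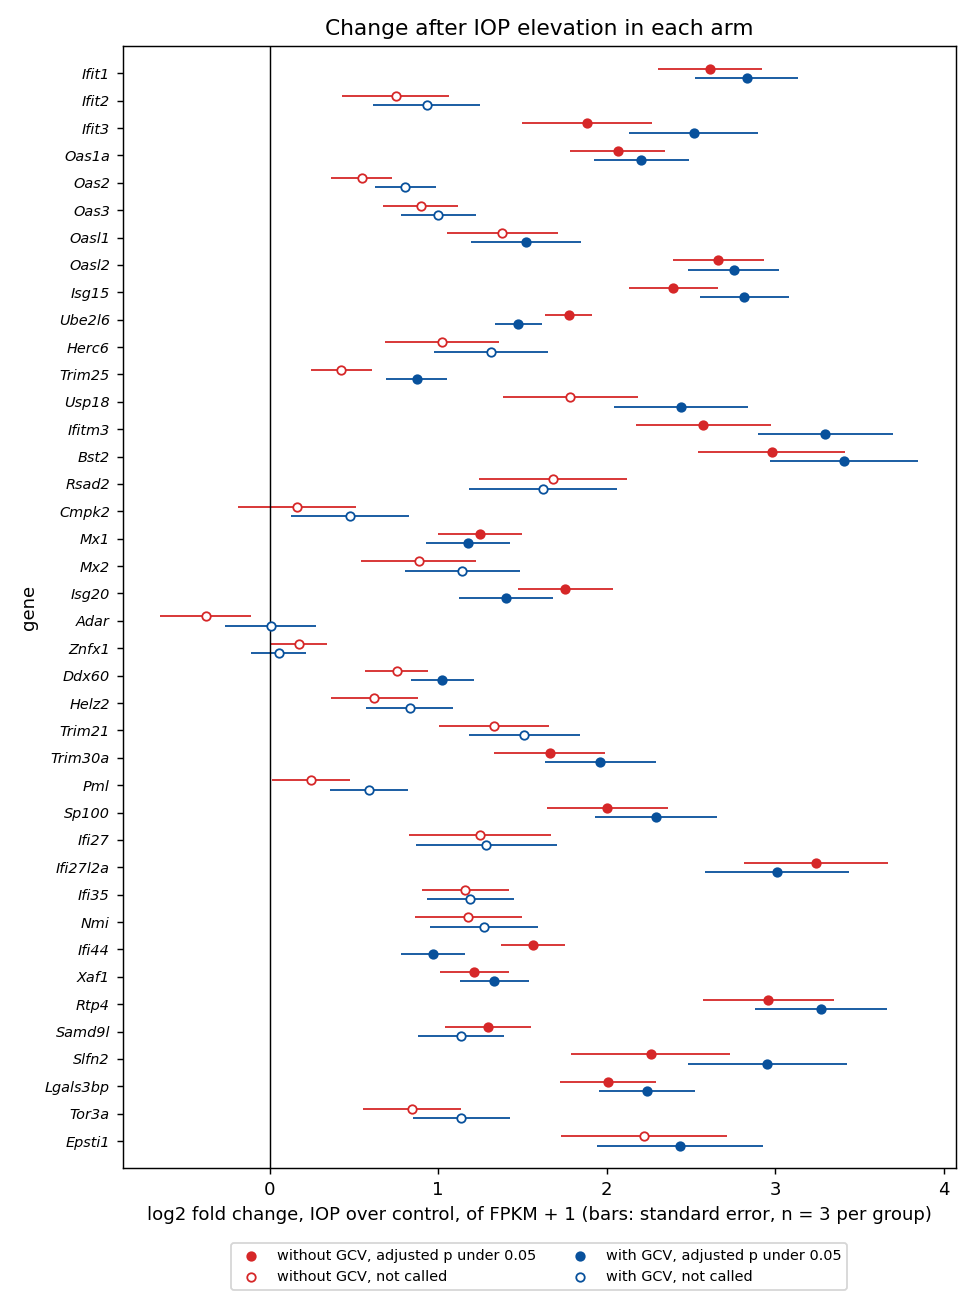
Fitted log2 fold change of FPKM + 1 (x axis), IOP over control, for each gene (y axis), red for sham-treated and blue for GCV-treated mice, with bars of 1 standard error and n = 3 per group. Filled points passed an adjusted p of 0.05, and the red and blue points of a gene lie close together relative to their bars for most genes.

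The Ifit proteins bind RNA through repeated helical motifs, and Ifit1 recognizes RNA whose cap lacks the methyl mark of host transcripts. Ifit1 stood at 2.81, 2.04 and 2.32 FPKM in the ctrl retinas of mice 3, 4 and 6 and at 20, 28.9 and 13 FPKM in their IOP retinas. In mice 1, 2 and 5 it stood at 2.09, 2.63 and 2.77 FPKM in ctrl-GCV and at 18.8, 18.8 and 37.7 FPKM in IOP-GCV retinas. The lowest IOP-treated retina, that of mouse 6, was still above every control. Ifit1 rose by 2.61 ± 0.31 (log2, standard error, adjusted p = 0.00564) in sham-treated and by 2.83 ± 0.31 (adjusted p = 0.00368) in GCV-treated mice, and no omission of a single library ended either call.

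Ifit3, a partner of Ifit1 and the most abundant Ifit member in each group, was measured at 7.87, 7.25 and 10.3 FPKM in ctrl and 40.4, 53.5 and 17.4 FPKM in IOP retinas. In the GCV arm the values were 6.50, 8.58 and 8.03 FPKM and 36, 40.6 and 78 FPKM. Again the IOP-treated retina of mouse 6 was the lowest of its kind. Ifit3 rose by 1.88 ± 0.38 (log2, standard error, adjusted p = 0.0413) and by 2.52 ± 0.38 (adjusted p = 0.0121), but with the mouse as a block it was called in neither arm (adjusted p = 0.12 and 0.0569) and 1 omitted library was enough to lose it in 4 of 6 and 3 of 6 fits. In sham-treated mice it was also lost with only the groups compared and without the variance trend. Mouse Ifit3 has a near-identical copy, Ifit3b, whose reads cannot be assigned with certainty. Ifit2 stood at 2.76 ± 0.105 FPKM in ctrl and 5.79 ± 3.33 FPKM in IOP retinas (SD, n = 3) and was not called in either arm. Its log2 fold change over both arms was 0.84 (adjusted p = 0.0398). Ifit2, Ifit3 and Ifit1 lie in this order on chromosome 19, with 6585 and 51907 bases between them.

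The oligoadenylate synthetases make a short adenylate chain that activates an RNA-cutting enzyme, RNase L. Oas1a, Oas2, Oas3 and Oasl1 had control means under 0.3 FPKM, which is a few fragments per library. Oas1a was at 0.15 to 0.266 FPKM in the 6 control retinas and at 2.28 to 7.48 FPKM in the 6 IOP-treated retinas, with no overlap, and rose in both arms (log2 fold change 2.06, adjusted p = 0.0113 and 2.21, adjusted p = 0.0059). With the mouse as a block the value for sham-treated mice was just not called (adjusted p = 0.0514). Close relatives such as Oas1g share sequence with Oas1a, which leaves its level uncertain. Oas2 and Oas3 were called in neither arm and rose in the average over both (log2 fold change 0.68, adjusted p = 0.0114 and 0.95, adjusted p = 0.00595). Oas2 did not differ between the eyes of mouse 6, at 0.341 FPKM in the control and 0.338 FPKM in the IOP-treated retina. Oas3 was listed at 0 in the ctrl-GCV retina of mouse 1.

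Oasl1 and Oasl2 are relatives that carry ubiquitin-like domains. Oasl2, the most abundant member of its group, was at 5.07, 5.32 and 6.02 FPKM in ctrl and 30.5, 41.3 and 50.2 FPKM in IOP retinas. The GCV arm gave 4.69, 5.59 and 6.18 FPKM in control and 31.9, 34.8 and 69.1 FPKM in IOP-treated retinas. The controls of all 6 mice were close to each other, and mouse 6, lowest for Ifit1 and Ifit3, had the highest Oasl2 value of the sham arm. Oasl2 was called in each arm whichever single library was omitted, and over both arms it rose by 2.71 ± 0.19 (log2, standard error, adjusted p = 0.000131). Oasl1 was called in GCV-treated mice (1.52, adjusted p = 0.0482) and had a log2 fold change of 1.38 in sham-treated mice (adjusted p = 0.0731). With the mouse as a block it was not called in GCV-treated mice (adjusted p = 0.0878).

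Isg15 is joined to target proteins by a chain of enzymes, of which Ube2l6 is the conjugating enzyme, Herc6 and Trim25 are ligases, and Usp18 takes the tag off again. Isg15 itself stood at 2.19, 1.86 and 1.75 FPKM in ctrl and 14.7, 18.8 and 10.8 FPKM in IOP retinas. With GCV it stood at 0.669, 1.99 and 0.741 FPKM in control and 12, 12 and 17 FPKM in IOP-treated retinas. All IOP-treated values were above all controls, and Isg15 was called in each arm (log2 fold change 2.40, adjusted p = 0.00492 and 2.82, adjusted p = 0.00256), also with the mouse as a block.

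Ube2l6 was measured at 4.86, 4.94 and 6.20 FPKM in ctrl, 20.7, 21.3 and 19.7 FPKM in IOP, 5.85, 6.07 and 6.56 FPKM in ctrl-GCV and 22, 15.4 and 19.7 FPKM in IOP-GCV retinas. The means of the IOP-treated groups were 3.86 and 3.10 times those of their controls. Over both arms Ube2l6 rose by 1.63 ± 0.098 (log2, standard error, adjusted p = 0.000106), and it was called in each arm whichever single library was omitted.

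The other conjugation genes were less even. Usp18 rose in GCV-treated mice (log2 fold change 2.44, adjusted p = 0.0147, and 0.0633 with the mouse as a block) and missed the threshold in sham-treated mice (1.78, adjusted p = 0.0592), where mouse 6 had 2.94 FPKM against 6.74 and 10.4 FPKM in mice 3 and 4. Trim25, which also ubiquitinates the RNA sensor Ddx58, stood at 6.30 ± 0.277 FPKM in ctrl and 8.81 ± 0.468 FPKM in IOP retinas, and at 5.01 ± 0.579 FPKM in ctrl-GCV and 10.3 ± 3.26 FPKM in IOP-GCV retinas (SD, n = 3 each). It was not called in sham-treated mice (log2 fold change 0.43, adjusted p = 0.244) and rose in GCV-treated mice (0.87, adjusted p = 0.0414, and 0.0775 with the mouse as a block). Herc6 was called in neither arm and rose in the average (1.17, adjusted p = 0.0155).

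Of the genes that act on entry, assembly and release, Ifitm3 sits in endosomal membranes and hinders fusion of virus with them, and Bst2 tethers budding particles to the cell. Ifitm3 was at 24.7, 10.9 and 47.1 FPKM in ctrl and 149, 131 and 156 FPKM in IOP retinas. In the GCV arm it was at 12.5, 18.1 and 16.6 FPKM in control and 163, 129 and 203 FPKM in IOP-treated retinas. The control retinas of sham-treated mice were spread over a wider range than those of GCV-treated mice, and none came near an IOP-treated retina. Ifitm3 rose by 2.57 ± 0.40 (log2, standard error, adjusted p = 0.0154) in sham-treated and by 3.30 ± 0.40 (adjusted p = 0.00567) in GCV-treated mice, also with the mouse as a block. In sham-treated mice the call was lost without the ctrl or without the IOP retina of mouse 3, and with only the groups compared.

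Bst2 values were 2.37, 3.11 and 5.74 FPKM in ctrl and 45.1, 29.9 and 31.1 FPKM in IOP retinas. They were 1.75, 4.78 and 3.89 FPKM in ctrl-GCV and 39.4, 25.6 and 85.7 FPKM in IOP-GCV retinas, with the IOP-treated retina of mouse 5 standing highest. Bst2 rose by 2.98 ± 0.44 (log2, standard error, adjusted p = 0.0129, and 0.058 with the mouse as a block) and by 3.41 ± 0.44 (adjusted p = 0.0059), the latter the largest fitted change of the 40 genes in the GCV arm at a pseudocount of 1. At a pseudocount of 0.1 there were 5 genes above Bst2 (3.75), which were Sp100 (4.29), Rtp4 (4.16), Epsti1 (4.04), Oas1a (3.99) and Slfn2 (3.98). In sham-treated mice Bst2, Ifi27l2a, Rtp4 and Lgals3bp each lost the call when the ctrl retina of either mouse 3 or mouse 4 was omitted.

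Rsad2, an enzyme that makes a chain-terminating nucleotide, and its neighbor Cmpk2, a mitochondrial nucleotide kinase, lie 12665 bases apart on chromosome 12 and differed in their values. Rsad2 was at 0.0733 to 0.523 FPKM in the 6 control retinas and at 0.843 to 5.88 FPKM in the 6 IOP-treated retinas. It was called in neither arm (adjusted p = 0.098 and 0.0958) and rose over both (log2 fold change 1.65, adjusted p = 0.0109). Cmpk2 was at 3.71 to 5.28 FPKM in controls and at 2.48 to 9.71 FPKM in IOP-treated retinas, which overlap, and was not called in the average (log2 fold change 0.32, 95% interval -0.23 to 0.87, adjusted p = 0.428).

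The Mx proteins are dynamin-like GTPases that block incoming viral nucleocapsids. Mx1 was listed at 0 in the ctrl-GCV retinas of mice 1 and 2 and at no more than 0.152 FPKM in the other control retinas, and at 0.388 to 2.03 FPKM in IOP-treated retinas. It was called in both arms (adjusted p = 0.0372 and 0.044) and in neither with the mouse as a block (0.0921 and 0.0927). Mx2 was called in neither and rose in the average (log2 fold change 1.01, adjusted p = 0.0272). The sequences of both are similar enough that reads may have been shared.

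Among the RNA enzymes, Isg20 cuts single-stranded RNA from its end. It was at 1.09, 0.338 and 0.323 FPKM in ctrl, 5.36, 4.92 and 2.77 FPKM in IOP, 0.576, 0.567 and 0.558 FPKM in ctrl-GCV and 2.69, 2.24 and 4.95 FPKM in IOP-GCV retinas. The groups did not overlap in either arm, and Isg20 rose in both (log2 fold change 1.76, adjusted p = 0.0171 and 1.40, adjusted p = 0.0362), though with the mouse as a block the calls were lost (0.0514 and 0.0636), and with 1 library omitted Isg20 was called in 2 of 6 and 1 of 6 fits. In GCV-treated mice it was also lost with only the groups compared. Ddx60, a helicase, was at most 0.301 FPKM in any control retina and was called in GCV-treated mice (1.02, adjusted p = 0.0233, and 0.0573 with the block) but not in sham-treated mice (0.75, adjusted p = 0.083). Helz2, a helicase that also binds nuclear receptors, was called in the average alone (0.73, adjusted p = 0.0336).

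Adar edits adenosine to inosine in double-stranded RNA and keeps the cell's own RNA from being sensed. Like Cmpk2, Znfx1 and Pml, Adar was called neither in an arm nor in the average. It stood at 17.8, 19.5 and 18.6 FPKM in ctrl and 17.3, 19.8 and 8.09 FPKM in IOP retinas. With GCV it stood at 17.3, 25.8 and 19.9 FPKM in control and 19.4, 19.2 and 24.2 FPKM in IOP-treated retinas. The IOP-treated retina of mouse 6 was the lowest and the control retina of mouse 2 the highest, and the groups overlapped. The log2 fold change was -0.38 in sham-treated mice (adjusted p = 0.444), and omitting the IOP retina of mouse 6 gave -0.012 whereas omitting that of mouse 4 gave -0.61. It was 0.0068 in GCV-treated mice (adjusted p = 1), where the sign turned under median-ratio scaling, under quantile normalization and when any 1 of 3 libraries was omitted (the ctrl-GCV retinas of mice 1 and 5 and the IOP-GCV retina of mouse 5). Over both arms it was -0.19 with a 95% interval of -0.61 to 0.24. Znfx1, another helicase of the list, had a log2 fold change of 0.11 over both arms (95% interval -0.14 to 0.37). Adar and Znfx1 were among the more abundant members in control retinas, at means of 18.7 and 8.28 FPKM in ctrl.

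Trim21 is a receptor for antibody-coated particles in the cytosol and Trim30a a mouse ligase that dampens inflammatory signaling. Trim30a was at 0.072 to 0.763 FPKM in control and 1.98 to 7.04 FPKM in IOP-treated retinas and rose in both arms (log2 fold change 1.66, adjusted p = 0.0373 and 1.96, adjusted p = 0.0162), in sham-treated mice not with the mouse as a block (0.0664). Reads of its relatives Trim30d and Trim30c could have been split with it. Trim21 reached an adjusted p of 0.0502 in GCV-treated and 0.0828 in sham-treated mice and rose in the average (1.42, adjusted p = 0.00549).

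Pml and Sp100 are both scaffold proteins of nuclear bodies, and their values differed. Sp100 was at 0.194, 0.165 and 0.403 FPKM in ctrl and 3.22, 4.42 and 4.5 FPKM in IOP retinas, and at 0.199, 0.0652 and 0.146 FPKM in ctrl-GCV and 5.11, 1.82 and 8.98 FPKM in IOP-GCV retinas. Its groups were far apart in both arms (log2 fold change 2.0, adjusted p = 0.0267 and 2.29, adjusted p = 0.0133), with the call in sham-treated mice lost under the block (0.0685). With 1 library omitted Sp100 was called in 1 of 6 fits in sham-treated mice (that without the IOP retina of mouse 4) and in 3 of 6 in GCV-treated mice, where it was lost without any of the 3 ctrl-GCV retinas and with only the groups compared. Pml was at 2.58, 2.51 and 2.87 FPKM in ctrl, 3.98, 4.41 and 2.01 FPKM in IOP, 2.30, 2.58 and 2.27 FPKM in ctrl-GCV and 3.57, 3.50 and 5.43 FPKM in IOP-GCV retinas. The IOP-treated retina of mouse 6 lay below all 6 controls, and Pml was not called (log2 fold change over both arms 0.42, 95% interval 0.055 to 0.78, adjusted p = 0.115).

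The remaining 12 members were all called in the average, with log2 fold changes of 0.99 to 3.13. Ifi27l2a and Ifi27 encode small membrane proteins. Ifi27l2a was at 2.19, 2.94 and 5.01 FPKM in ctrl and 68.1, 29.9 and 29 FPKM in IOP retinas, and at 1.31, 4.39 and 4.89 FPKM in ctrl-GCV and 30.7, 42.4 and 27 FPKM in IOP-GCV retinas. All IOP-treated values exceeded all controls, and its rise of 3.24 ± 0.43 (log2, standard error, adjusted p = 0.0105, and 0.0533 with the block) was the largest fitted change of the 40 genes in sham-treated mice at a pseudocount of 1. At a pseudocount of 0.1 the same 5 genes that passed Bst2 in the GCV arm stood above Ifi27l2a (3.57), from Sp100 at 3.59 to Epsti1 at 3.95. In GCV-treated mice the change was 3.01 (adjusted p = 0.00811). Ifi27 means ran from 6.60 ± 4.56 to 15.6 ± 4.48 FPKM and from 5.99 ± 1.60 to 16.5 ± 6.22 FPKM (SD, n = 3 each) and it was called in neither arm (adjusted p = 0.186 and 0.146). The annotated spans of both genes overlap on chromosome 12, so reads may have been assigned to either.

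Rtp4, a chaperone that helps receptors reach the cell surface and binds RNA, was at 0.732, 1.17 and 1.79 FPKM in ctrl and 14.1, 15.7 and 18.5 FPKM in IOP retinas. It was at 0.376, 1.48 and 1.35 FPKM in ctrl-GCV and 13.9, 11.9 and 36.7 FPKM in IOP-GCV retinas. The groups were far apart in both arms. Rtp4 rose by 2.96 ± 0.39 (log2, standard error, adjusted p = 0.0105) and by 3.27 ± 0.39 (adjusted p = 0.0056), and both calls held with the mouse as a block.

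Lgals3bp, a secreted glycoprotein that binds galectins, was at 9.26, 8.17 and 18.2 FPKM in ctrl and 52.6, 44.3 and 47.4 FPKM in IOP retinas. In the GCV arm it was at 9.46, 11.4 and 9.24 FPKM and at 55.4, 35.1 and 67.3 FPKM. The mouse 6 control was the highest of the controls, as it was for Ifitm3 and Ifi27. Lgals3bp rose by 2.01 (adjusted p = 0.0115, and 0.0559 with the block) and by 2.24 (adjusted p = 0.0059) on the log2 scale.

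Slfn2, a member of a family that restrains lymphocyte growth, rose in both arms (log2 fold change 2.26, adjusted p = 0.0448 and 2.95, adjusted p = 0.014), from at most 0.918 FPKM in any control to 29.1 FPKM in the IOP-treated retina of mouse 5 at the upper end. Xaf1, which promotes cell death by binding an inhibitor of apoptosis, rose in both as well (1.21, adjusted p = 0.0224 and 1.33, adjusted p = 0.0125). With the mouse as a block Slfn2 was called in GCV-treated mice (adjusted p = 0.0499) and not in sham-treated mice (0.0996), and Xaf1 in neither (0.0584 in GCV-treated and 0.0843 in sham-treated mice). Epsti1 was called in GCV-treated mice (2.43, adjusted p = 0.0368) and Samd9l, which limits translation and cell growth, in sham-treated mice (1.30, adjusted p = 0.0363, and 0.118 with the block). Ifi35 and Nmi, which bind each other, and the torsin Tor3a were called in neither arm and rose in the average by 1.18 (adjusted p = 0.0042), 1.23 (0.00976) and 0.99 (0.0162). Ifi44 is described with the GCV comparison.

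Within each mouse the 2 eyes were compared directly. The median difference of the 40 genes, IOP-treated minus control eye in log2(FPKM + 1), was 1.61, 1.61 and 0.98 in mice 3, 4 and 6 and 1.66, 1.09 and 1.84 in mice 1, 2 and 5, while the median of all genes was 0 in each mouse. At a pseudocount of 0.1 the medians ran from 1.61 in mouse 6 to 2.92 in mouse 4. All 40 genes were higher in the IOP-treated eye in mice 1, 4 and 5, 39 in mouse 3, 37 in mouse 2 and 35 in mouse 6. The mice with the smallest medians, 2 and 6, were in different arms. The IOP-treated retina of mouse 5 held the highest value of the 6 IOP-treated retinas in 27 of the 40 genes. The lowest value was that of mouse 2 in 18 genes and that of mouse 6 in 17. Mouse 6 was not low throughout. Its IOP-treated retina had the highest value of the sham arm in 8 genes, among them Oasl2, Oas1a, Oas3, Ifitm3, Rtp4 and Epsti1. It also had the lowest estimated number of fragments, and 14844 genes above 0 against 16044 to 16593 in the others.

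**Figure D3:**
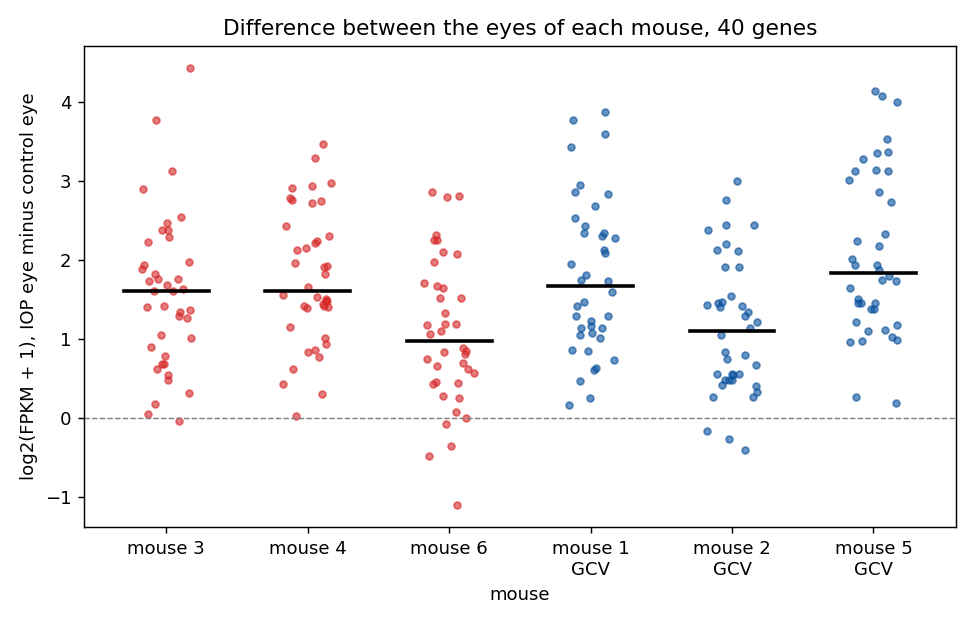
Difference in log2(FPKM + 1) between the IOP-treated and the control eye of each mouse (y axis), 1 point per gene and a bar at the median of the 40 genes, red for sham-treated and blue for GCV-treated mice. The medians run from 0.98 in mouse 6 to 1.84 in mouse 5, and both arms hold larger and smaller medians.

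The effect of GCV on the response was tested as the difference between both IOP effects (the interaction). limma called 0 of the 40 genes (0% of all genes), also with the mouse as a block, and Ifi44 was the 1 member with an unadjusted p under 0.05, a level that 358 of all genes passed. The change was larger with GCV in 32 of the 40 genes and smaller in 8 (9393 and 9116 of all 18509 genes). The median difference of the 40 genes was 0.22 on the log2 scale. Omitting the IOP-treated retina of mouse 5 gave a median of -0.066, omitting that of mouse 6 gave 0.063, and omitting that of mouse 2 gave 0.46. Omitting the ctrl-GCV retina of mouse 1 gave 0.128 and omitting the ctrl retina of mouse 6 gave 0.147. For the genes with the clearest IOP effects the 95% intervals of the difference were -0.74 to 1.18 for Ifit1, -0.41 to 1.25 for Isg15, -0.75 to 0.94 for Oasl2 and -0.73 to 0.13 for Ube2l6.

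IOP-GCV and IOP retinas were also compared directly, across different mice. None of the 40 genes was called by limma (0% of all genes), and 1 passed an unadjusted p under 0.05 (774 of all genes). The median log2 difference was 0.16 with 31 of the 40 genes higher in IOP-GCV (9502 of all 18509 genes). It was -0.094 without the IOP-GCV retina of mouse 5, 0.39 without that of mouse 2 and 0.061 without the IOP retina of mouse 6. Ifi44, a cytoplasmic protein of the response, was the 1 member whose groups did not overlap (4.75% of all genes in either direction), at 2.34, 1.96 and 2.73 FPKM in IOP and 1.16, 0.530 and 1.87 FPKM in IOP-GCV retinas. The Ifi44 difference was -0.65 ± 0.19 (log2, standard error, limma adjusted p = 0.819), and the Ifi44 interaction was -0.60 (limma adjusted p = 0.997). Ifi44 rose upon IOP elevation in both arms (log2 fold change 1.56, adjusted p = 0.006 and 0.97, adjusted p = 0.0322), in GCV-treated mice not with the mouse as a block (0.0836).

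Between ctrl-GCV and ctrl retinas limma called 0 of the 40 genes (0% of all genes), with 0 at an unadjusted p under 0.05 (295 of all genes). The median log2 difference was -0.0036, with 20 genes higher and 20 lower, and its sign was not stable, at 0.0042 with median-ratio scaling, 0.078 without the ctrl-GCV retina of mouse 1, 0.044 without the ctrl retina of mouse 6 and -0.074 to -0.046 without any 1 of the other libraries. Trim25 and Ddx60 had groups that did not overlap, both lower with GCV, where 11.2% of all genes did not overlap in either direction. Trim25 was at 6.07, 6.61 and 6.22 FPKM in ctrl and at 4.89, 4.5 and 5.64 FPKM in ctrl-GCV retinas.

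The genes upstream of the effectors were read from lists of ligands, receptors and kinases, transcription factors, sensors and inhibitors. Of 14 interferon ligands, 12 were listed at 0 in all 12 libraries, among them Ifng, the sole gene for interferon gamma, and the lambda genes Ifnl2 and Ifnl3. Ifnb1 was listed at 0 except in the IOP retina of mouse 4, at 0.378 FPKM, and Ifnz was above 0 in 1 ctrl and 1 IOP-GCV retina. A difference in ligand transcripts was not detectable at this depth. Whether an interferon was present, and of which class, cannot be told from the effectors alone.

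Of 9 receptors and kinases, 0 were called in either arm by limma (3 and 5 at an unadjusted p under 0.05), and in the average 2 rose and 1 fell. Ifnar2, a chain of the type I receptor, rose over both arms (log2 fold change 1.34, adjusted p = 0.0122), with 5.18 to 9.13 FPKM in control and 10.8 to 32.1 FPKM in IOP-treated retinas. Jak1 fell by 0.24 (adjusted p = 0.0243), and Il10rb, a chain of the lambda receptor, rose by 1.34 (adjusted p = 0.0451). With the mouse as a block Ifnar2 was still called, whereas Jak1 (0.0604) and Il10rb (0.0517) were not, and with 1 library omitted Il10rb was called in 2 and Jak1 in 7 of 12 fits.

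Of 8 transcription factors, 3 rose in sham-treated mice, 6 in GCV-treated mice and 6 in the average (1, 2 and 6 with the mouse as a block). Irf9 was at 4.96, 4.5 and 6.84 FPKM in ctrl, 46.4, 33.7 and 38 FPKM in IOP, 4.93, 5.31 and 6.62 FPKM in ctrl-GCV and 23.1, 34 and 80.8 FPKM in IOP-GCV retinas. The log2 fold change of Irf9 over both arms was 2.65 (adjusted p = 0.000417). Stat2 (1.28, adjusted p = 0.00215), which binds Irf9, rose too, as did Irf8 (1.87, adjusted p = 0.000631), a factor of myeloid cells. Irf2 and Irf3 were not called.

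Of 12 nucleic acid sensors and their adaptors, 2 rose in sham-treated mice, 3 in GCV-treated mice and 8 in the average (1, 2 and 7 with the block). Zbp1, a sensor of left-handed nucleic acids, was at 0.12 to 0.944 FPKM in the 6 control and 6.78 to 14.7 FPKM in the 6 IOP-treated retinas (log2 fold change over both arms 3.19, adjusted p = 0.000106). Ddx58, the sensor also called RIG-I, rose by 1.51 over both arms (adjusted p = 0.00127). Among 5 inhibitors 1 rose in each arm and 3 in the average (0, 1 and 3 with the block), where Socs3, which blocks the receptor kinases, rose by 2.79 (adjusted p = 0.000417) and the phosphatase Ptpn6 by 2.48 (adjusted p = 0.00704) on the log2 scale. In the interaction 0 genes of these lists were called, and 0 had an unadjusted p under 0.05.

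**Figure D4:**
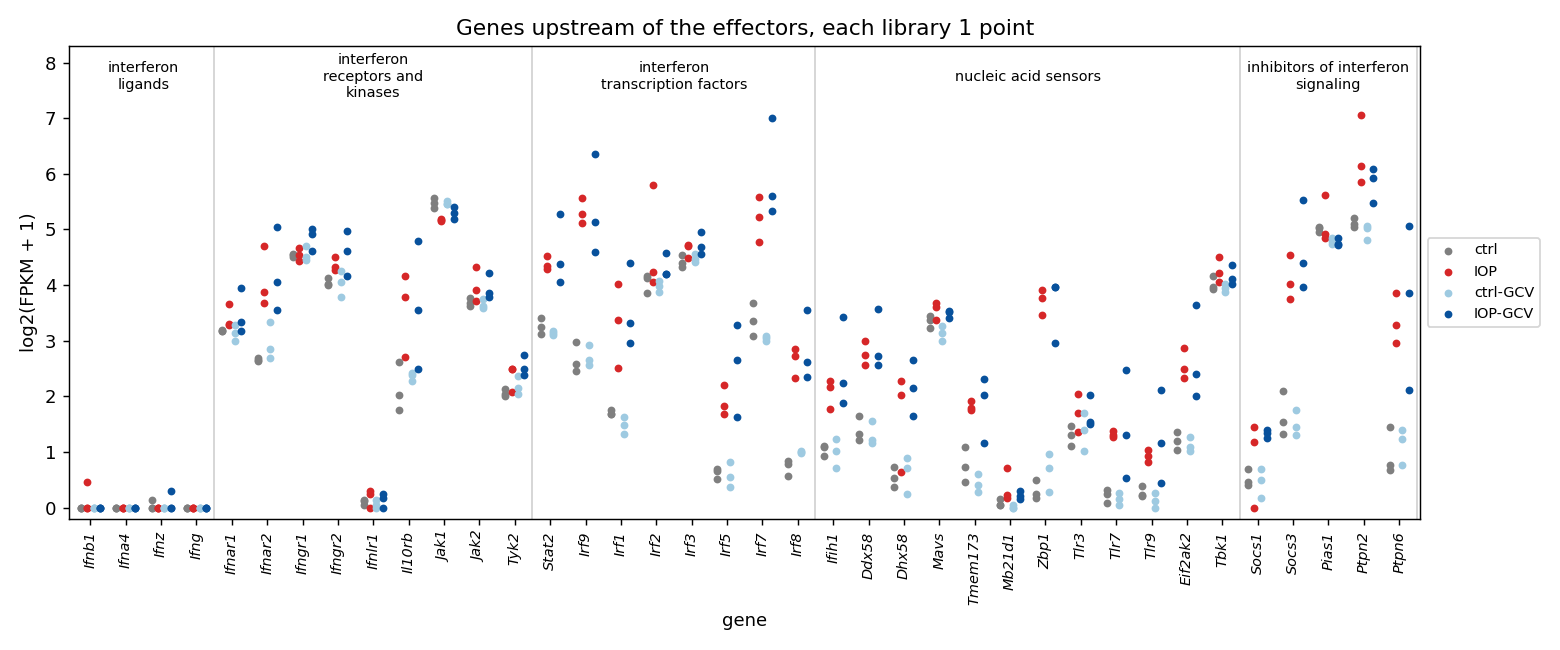
Level in log2(FPKM + 1) (y axis) of genes upstream of the effectors (x axis, by list), 1 point per library and colored by group. The ligands lie at or near 0, and the IOP and IOP-GCV points of Irf9, Irf7 and Zbp1 lie above the control points.

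Cell type markers were read from the same fits. Of 13 infiltrating leukocyte markers, 7 rose over both arms (Ptprc, Ccr2, Ly6c2, Lyz2, Plac8, S100a8 and S100a9). Their summed level was 9.69 to 48.2 FPKM in ctrl, 326 to 745 in IOP, 12.2 to 37.1 in ctrl-GCV and 177 to 2514 in IOP-GCV retinas, most of it Lyz2. The lowest and the highest of the 6 IOP-treated retinas, mice 2 and 5, were also the lowest and the highest for the summed effector genes. The monocyte marker Ly6c2 was listed at 0 in 5 of 6 control retinas, and the T-cell marker Cd3e was at or below 0.271 FPKM throughout. Whether the listed transcripts came from infiltrating or resident cells was not tested. The median difference between the eyes of the leukocyte markers was 1.87, 0.41, 1.78, 1.89, 3.14 and 1.73 in mice 1 to 6, above that of the effector genes in 5 mice and below it in mouse 2, where the summed leukocyte level was still 3.77 higher on the log2 scale in the IOP-treated eye.

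Of 9 markers of resident microglia, 4 rose and 1 (Siglech) fell over both arms, and with the mouse as a block 4 were called. Their sum was 41.6 to 52 FPKM in ctrl, 75.4 to 105 in IOP, 48.8 to 52.3 in ctrl-GCV and 71.3 to 196 in IOP-GCV. Their median differences were 0.75, 0.37, 0.73, 0.73, 0.69 and 0.029 in mice 1 to 6, and in mouse 6 the summed level was 0.54 higher on the log2 scale in the IOP-treated eye. Of 7 ganglion cell markers 5 fell over both arms (1 with the mouse as a block, and each in 2 or 3 of the 12 fits with 1 library omitted), and their summed level was 828 to 1044 FPKM in ctrl, 203 to 914 in IOP, 1045 to 1657 in ctrl-GCV and 304 to 671 in IOP-GCV retinas. Their median differences were -0.51, -1.83, -1.92, 0.03, -1.77 and -1.52 in mice 1 to 6.

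Of 8 lens markers 5 rose over both arms, each of them in 2 to 7 of the 12 fits with 1 library omitted. Their summed level was 6.18 to 35.5 FPKM in ctrl, 96.5 to 4819 in IOP, 71.5 to 6756 in ctrl-GCV and 3086 to 6147 in IOP-GCV retinas. The median differences of the lens markers were 0.49, 4.20, 1.73, 5.90, 3.42 and 4.8 in mice 1 to 6. In mouse 1 the log2 ratio of their summed level, IOP-treated over control eye, was -0.136. Among the Mueller glia markers Vim rose and Glul and Rlbp1 fell over both arms (2 called with the mouse as a block). Of 7 endothelial markers Emcn rose. In the plasmacytoid dendritic cell list, which holds Bst2 itself, Siglech fell, and Ly6d and Klk1 did not exceed 0.236 FPKM in any library. No marker of retinal pigment epithelium or of cornea, iris and ciliary body was called by limma over both arms (0 and 1 at an unadjusted p under 0.05). The part of these cell types in the level of the effector genes was not tested.

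**Figure D5:**
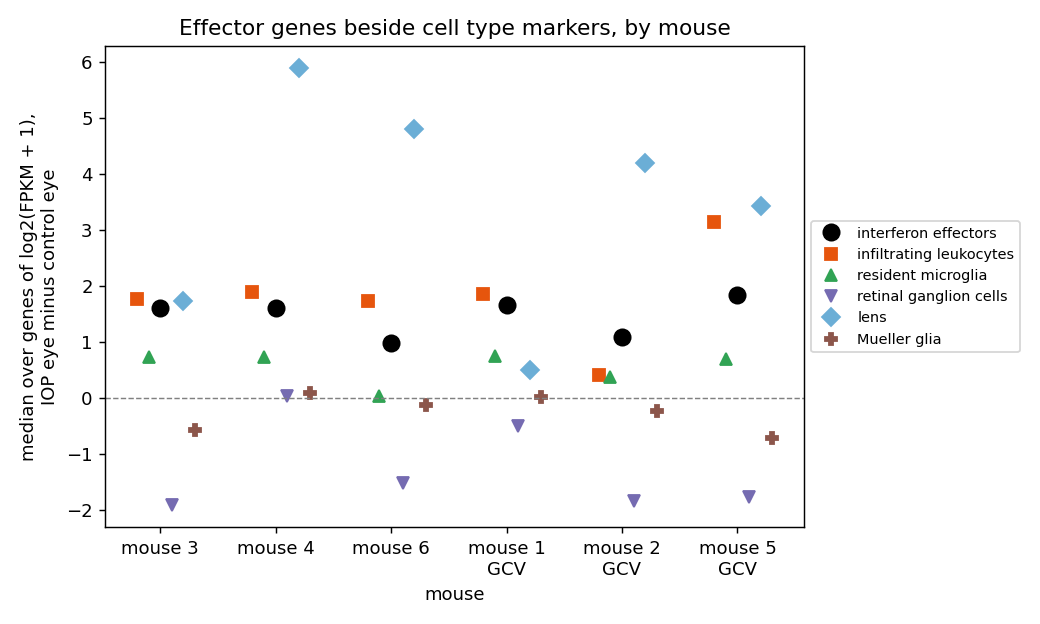
Median difference in log2(FPKM + 1) between the IOP-treated and the control eye (y axis) in each mouse (x axis) for the 40 effector genes and for 5 marker lists. The effector genes stay between 0.98 and 1.84 in all 6 mice, whereas the lens markers run from 0.49 in mouse 1 to 5.90 in mouse 4 and the ganglion cell markers from -1.92 in mouse 3 to 0.03 in mouse 4.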

How the data were processed

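Polyadenylated RNA of whole retinas was sequenced as strand-specific read pairs. The authors deposited 1 table of FPKM values for 12 libraries. No source states the unit. FPKM was inferred because low values times transcript length were multiples of 1 number per library (83.3% to 89.8% within 0.2 of a whole number over 1487 genes). The submitters' processing notes name mm10, TopHat2, Bowtie2, Cufflinks and Cuffdiff, while the study's methods name counting on RefSeq exons with HOMER, and versions and the strand setting are not given in the sources used here. No column was left unused (0), and 27 symbols appear as dates. Fragments were estimated from transcripts of at least 1500 bases less 170.

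Values were tested as log2(FPKM + 1) with limma 3.58.1 (R 4.3.3), 1 mean per group, a variance trend and Benjamini-Hochberg adjustment over 18509 genes. A count test had been planned for counts. p-values measure the spread between these animals. The eyes of a mouse are a pair by design, and the deviations of both eyes correlated at -0.117, 0.132, 0.208, 0.388, 0.166 and 0.0998 in mice 1 to 6 over 12910 genes. Alternatives were the mouse as a block, a pseudocount of 0.1, an adjusted p of 0.1, a minimum of 1 FPKM in 3 libraries, only the groups compared, median-ratio scaling, quantile normalization, no trend, and each library left out. The calling was tested on simulated data.

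The members and lists were chosen with earlier results of these data known. Per role, values are given in every library for the member with the largest mean and that with the smallest p, and for the largest and smallest change of each IOP comparison. Isg15, Rsad2, Trim25, Ifi44 and other genes with values were added after their values were seen. Of the listed symbols Rigi, Sting1 and Cgas were read under the older symbols Ddx58, Tmem173 and Mb21d1, and Ly6g had no row. From the transcription factor and rod lists 1 gene each is not reported here. Motifs were searched in RefSeq promoters of GRCm38.p6. Python 3.11.15 was used with matplotlib 3.10.9 for figures and with numpy 2.4.6 and pandas 2.3.3 for tables.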

Additional observations from a re-analysis of the deposited data

How the results depend on the processing

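The number of effector genes called in sham-treated mice was 19, against 7 with the mouse as a block and 4 to 23 when 1 library was left out. In GCV-treated mice it was 23, against 11 with only the groups compared, 14 with the mouse as a block and 10 to 32 when 1 library was left out. The average over both arms called 36, and 32 to 37 under the alternatives run, leaving out each library included. With a pseudocount of 0.1 the median log2 fold change was 2.07 in sham-treated mice, 2.58 in GCV-treated mice and 2.28 in the average, and the medians of mice 1 to 6 were 2.64, 1.72, 2.32, 2.92, 2.90 and 1.61. A smaller pseudocount by construction enlarges differences of low values.

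Of 308 values of called single genes under alternatives, 261 kept direction and call and 47 lost the call. Of 56 values of the uncalled Adar and Pml, 5 turned sign, all for Adar in GCV-treated mice, at -0.0033 with median-ratio scaling, -0.022 with quantile normalization and -0.118 to 0.158 when 1 library was left out. The mouse as a block changed no call for the interaction. The cause of the lost calls was not tested.

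With 3 retinas per group, members under 1 FPKM in controls rest on few fragments.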
